A study of Mus musculus with 96 samples.

Results

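RNA-seq of liver from mice that had eaten a high-fat diet (HFD) or a chow diet (CD) for 12 weeks was compared, with 4 mice on each diet, which are 8 of the 96 libraries of the study. Members were taken by their labels, as all liver libraries at 12 weeks on diet. The study followed male C57BL/6N mice, bought at 4 weeks of age, and sequenced islets and liver of the same animals after 4, 8, 12, 16, 20 and 24 weeks of feeding. CD was LabDiet 5001, with 13.5% fat, and HFD was Research Diets D12492, with 60% fat, so that the 2 diets also came from different makers and the effect of fat cannot be told apart from that of their other ingredients. Each library came from 1 mouse, and the 4 mice on CD (CD304, CD306, CD307 and CD308) shared no number with the 4 on HFD (HFD313, HFD315, HFD316 and HFD318). RNA was measured in liver tissue and not in sorted cells, so a value averages all of its cells, and fewer cells of a type and less RNA per cell cannot be told apart. Sex and genotype were the same in all 8 mice, and no female was studied.

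Hepatocytes take up fatty acids from the blood, make them from sugar, burn them in mitochondria and peroxisomes, and pack what is left as triglyceride into lipid droplets or into secreted lipoproteins. The nuclear receptor PPARγ, scarce in lean liver, turns on genes of fat storage that are otherwise typical of fat cells, and SREBP-1c, driven by insulin, turns on fatty acid synthesis. Fat-laden liver is also known for a recruited set of lipid-handling macrophages beside the resident Kupffer cells, for stellate cells that lay down collagen, and for stress of the endoplasmic reticulum.

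Before the diets are compared, some facts of the libraries bear on the values. The level of a gene was given in FPKM, the number of fragments of a transcript divided by its length and by the size of the library, and the read counts behind the values were not used here. Values of single mice are given in the order CD304, CD306, CD307, CD308 and then HFD313, HFD315, HFD316, HFD318. The summed FPKM ranged from 621738 to 639686 in CD and from 600351 to 639031 in HFD livers, the 20 most abundant genes held 32.5% to 36.9% of it in CD and 29.5% to 34.7% in HFD, and 9494 to 9864 genes in CD and 9895 to 10312 in HFD reached 1 FPKM. The defining hepatocyte markers Alb, Ttr and Hnf4a were present in every library, and the summed level of 17 hepatocyte genes was 95699 to 107627 FPKM in CD and 90705 to 95862 FPKM in HFD. Transcripts of the pancreas stood in 2 CD livers. Ins2, an insulin gene made by beta cells, was listed at 257 FPKM in CD304 and 2467 FPKM in CD306, at 0.65 FPKM in HFD316 and at 0 in the other 5 libraries, and the acinar enzyme gene Ctrb1 at 4.96, 28.8, 0.14 and 0 FPKM in CD and 0.04, 0, 1.22 and 0 FPKM in HFD. Summed over Ins1 and Ins2, the level was 0.0638% of that in the islets of the same mouse for CD304 and 0.602% for CD306. At that share of islet RNA, 1.04% of 9955 genes tested would have, in CD306, islet RNA at more than 10% of their mean CD level, among them 3 of the DEGs defined below, Ucp2, Fam241b and Ttc39a, all higher in HFD. Red blood cell genes were also uneven, with a summed level of 529 to 1710 FPKM in CD and 756 to 4786 FPKM in HFD. The fat cell markers Adipoq and Lep were at 0 in all 8 libraries and Plin1 at 0 in 7 of them, with 0.06 FPKM in HFD315.

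On these 8 libraries, 1059 of 9955 genes tested differed between diets at an adjusted p under 0.05 (limma, Benjamini-Hochberg), of which 938 (9.42% of genes tested) were higher and 121 (1.22%) lower in HFD. Differences are on the log2(FPKM + 1) scale, which understates the change of genes with a low level. A differentially expressed gene (DEG) had in addition an absolute log2 change of at least 1, and 1.03% of genes tested were DEGs higher in HFD and 9 (0.0904%) were DEGs lower. Over all genes tested the median log2 change was 0.111, and dividing each library by its median ratio moved it to -0.022. With that scaling 563 genes passed as higher (5.66%) and 525 as lower (5.27%), with 72 DEGs higher and 16 lower, so the excess of genes higher in HFD depended on the scale. Among the DEGs higher in HFD 72 were called on both scales and 31 only with the values as deposited, and all 9 lower were called on both. All libraries of one diet lay beyond all of the other in 108 DEGs, which is all but 4, against 14.6% of genes tested with every HFD liver above every CD liver and 3.49% with every HFD liver below. The exceptions were Denn2b, Insig2, Hectd2 and Pltp, which were named after their values were seen. DEGs were called on these same 8 libraries, which favors groups that lie apart, so the count of 108 is no independent evidence.

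The 8 livers did not respond evenly. Among the DEGs higher in HFD, HFD316 was the lowest of the HFD livers in 65 (63.1%), HFD315 was the highest in 44 (42.7%), and CD304 was the highest of the CD livers in 52 (50.5%). HFD316 was also the highest HFD liver in 7 of the 9 DEGs lower in HFD, so it lay nearest to CD in most of them. Without CD304 there were 167 DEGs higher and 24 lower, without HFD316 there were 151 and 22, without CD307 there were 55 and 8, without CD308 there were 60 and 6, without HFD315 there were 64 and 8, and without both CD304 and CD306 there were 218 and 27. The genes that passed in either direction were 2105 without CD304, 622 without CD306, 201 without CD307, 233 without CD308, 665 without HFD313, 331 without HFD315 and 309 without HFD318. Using the share of FPKM in the 20 most abundant genes as a covariate left 16 DEGs higher and 3 lower, and using the share of mapped reads left 21 and 2. Still called with each covariate and in all 8 fits that left out 1 mouse were 20 DEGs, namely Cyp2b9, Cidea, Ifi27l2b, Lgals1, Anxa2, Adgrv1, Mogat1, Saa3, Elovl5, Ctse, Ifi27l2a, Stap1, Anxa5, Ccl2, Ces2e, Sod3, Slc13a3 and Pgm3, which were higher in HFD, and Ces2a and Cyp2g1, which were lower.

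**Figure D1:**
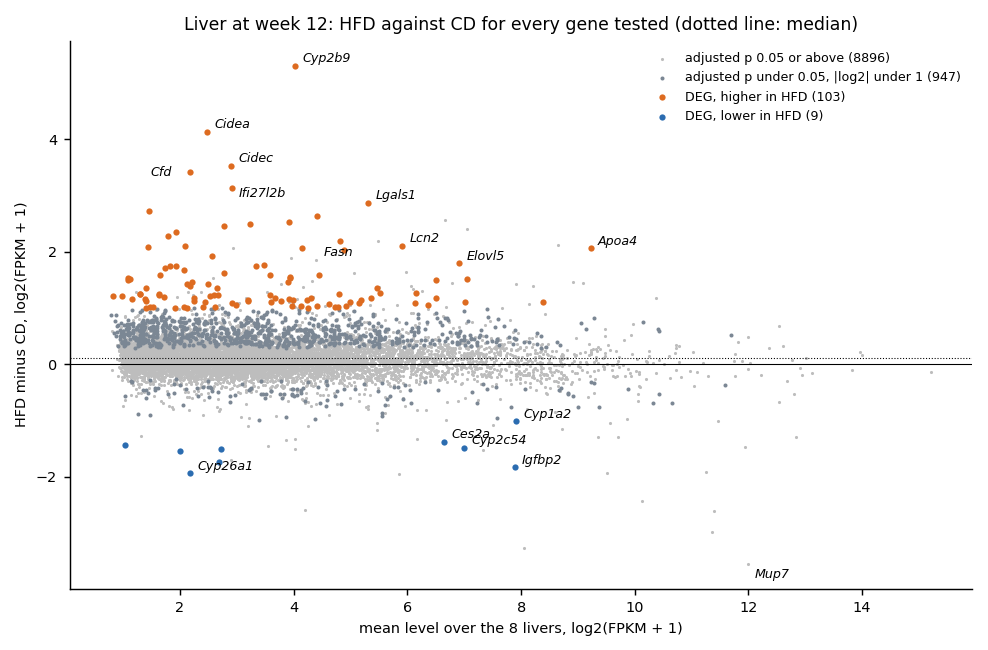
Difference between diets at week 12 (vertical axis, HFD minus CD, log2(FPKM + 1)) against the mean level over the 8 livers (horizontal axis, log2(FPKM + 1)) for 9955 genes. The DEGs higher in HFD (orange) reach a log2 change of 5.31 (Cyp2b9), the 9 lower (blue) reach -1.94 (Cyp26a1), Mup7 at the lower right did not pass, and the dotted line marks the median of 0.111.

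Genes of fat storage rose, and Cidea and Cidec had the largest increases after Cyp2b9. In a list of 13 genes of the PPARγ program, 11 were tested, 8 passed as higher and 0 as lower in HFD, and their median log2 change was 1.08. Cidea, which encodes a protein that fuses lipid droplets and is best known from brown fat, had 0.13, 1.50, 0.07 and 0.03 FPKM in CD and 28.6, 28.5, 12.95 and 23.7 FPKM in HFD. The 4 HFD livers lay far above all CD livers, with HFD316 the lowest of them and CD306 the highest of the CD livers, a 54.2-fold ratio of means (log2 change 4.14 ± 0.34 SE, adjusted p = 0.00137). Cidec, its relative that makes the single large droplet of white fat cells, had 0.73, 1.79, 1.17 and 1.22 FPKM in CD and 52.9, 20.2, 7.95 and 39.0 FPKM in HFD. Again the groups did not overlap and HFD316 was the lowest HFD liver (log2 change 3.53 ± 0.53 SE, adjusted p = 0.0132). Mogat1, a monoacylglycerol acyltransferase that feeds triglyceride synthesis, had 0.53, 1.10, 0.47 and 0.27 FPKM in CD and 7.04, 5.40, 4.95 and 10.1 FPKM in HFD, with a gap between the groups (log2 change 2.28 ± 0.21 SE, adjusted p = 0.00137). Cd36, the fatty acid translocase of the plasma membrane, had 8.92, 23.8, 15.6 and 10.3 FPKM in CD and 76.2, 63.8, 32.1 and 74.9 FPKM in HFD, and HFD316 was the HFD liver nearest to CD306, the highest CD liver (log2 change 2.02 ± 0.36 SE, adjusted p = 0.0172). That call was made in 4 of the 8 fits that left out 1 mouse. Pparg itself, the receptor gene, had 4.37, 4.91, 3.60 and 3.26 FPKM in CD and 10.6, 9.94, 4.69 and 10.2 FPKM in HFD, with HFD316 below CD306 and the other HFD livers above all CD livers (log2 change 0.93 ± 0.23 SE, adjusted p = 0.0354, called in 2 of 8 such fits).

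Other members of these lists moved less. Of the 17 tested genes of the lipid droplet, 4 passed as higher and 0 as lower with a median of 0.39, and beside Cidea and Cidec they were Fitm1 (1.17, adjusted p = 0.0287), which helps triglyceride bud into droplets, and Plin3 (0.73, adjusted p = 0.0273), a droplet coat protein. Plin2, the main droplet coat of hepatocytes, had 212.5, 338, 149 and 132 FPKM in CD and 496, 450.0, 294 and 419.9 FPKM in HFD, a log2 change of 1.07 with an adjusted p of 0.0521. Fatty acid uptake had 5 of 11 higher (3 with median ratio scaling) and 0 lower, with a median of 0.67, among them the fatty acid binding protein genes Fabp2 (1.50, adjusted p = 0.00519) and Fabp4 (1.45, adjusted p = 0.0154), and Lpl (0.77, adjusted p = 0.0347), the lipoprotein lipase. Triglyceride synthesis had 3 of 12 higher and 0 lower, but a median of 0.06 that lay under that of all genes: Mogat1, Gpam (0.81, adjusted p = 0.0117), whose enzyme adds the first acyl chain to glycerol phosphate, and Agpat2 (0.50, adjusted p = 0.0310), whose enzyme adds the second. Of the adipocyte list 4 of 5 tested genes passed as higher and 0 as lower (median 3.41), namely Cidea, Cidec, Fabp4 and Cfd. Cfd, which encodes the complement protease adipsin, had 0.70, 0.64, 0.17 and 0.12 FPKM in CD and 6.53, 26.4, 6.64 and 28.7 FPKM in HFD (log2 change 3.41 ± 0.52 SE, adjusted p = 0.0132). All 4 HFD livers lay above all CD livers in Cfd, while the remaining 7 genes of that list summed to 4.74 to 7.04 FPKM in CD and 5.34 to 16.0 FPKM in HFD.

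**Figure D2:**
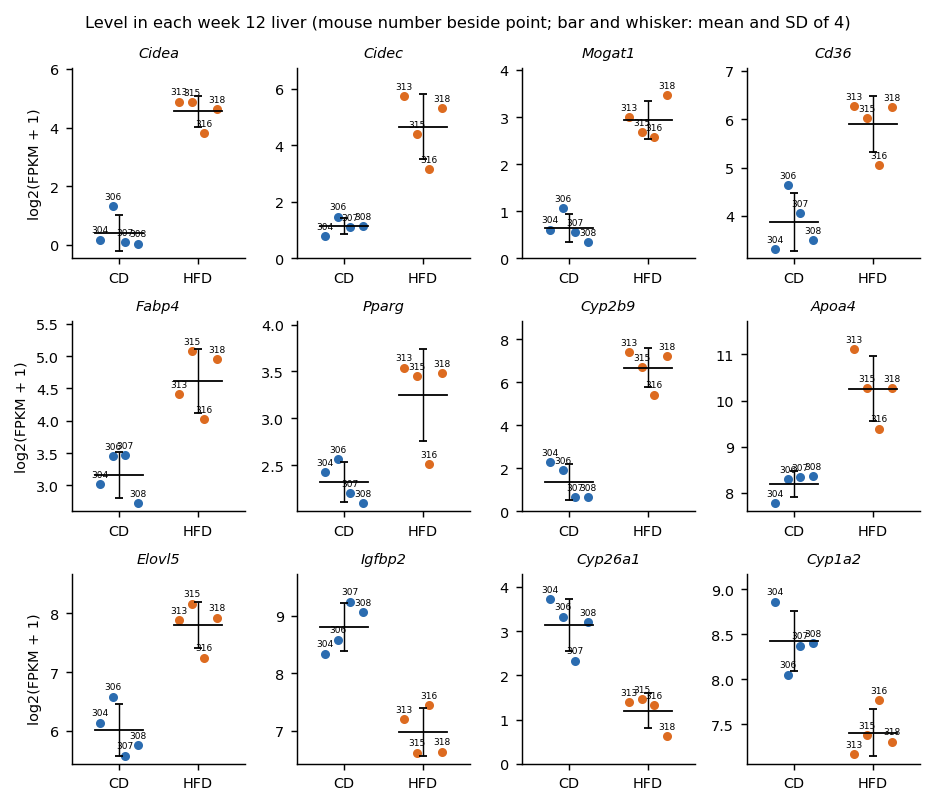
Level of 12 genes in each liver at week 12 (vertical axes, log2(FPKM + 1), ranges differ between panels) for CD (blue) and HFD (orange), with the mouse number at each point and the mean and SD of 4 livers. HFD livers lie above all CD livers for 8 of the genes, below them for Igfbp2, Cyp26a1 and Cyp1a2, and overlap for Pparg, where HFD316 is the low HFD liver.

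Fatty acid synthesis varied more between mice. In all 17 tested genes of de novo lipogenesis the estimate was above 0, with a median of 0.99, yet 2 passed. Elovl5, an elongase of polyunsaturated fatty acids, had 69.6, 94.8, 46.8 and 53.1 FPKM in CD and 235, 287, 151 and 243 FPKM in HFD, with the groups apart (log2 change 1.79 ± 0.25 SE, adjusted p = 0.00785). Fads2, the delta-6 desaturase, had 147, 86.6, 138 and 111.7 FPKM in CD and 293, 212.2, 193 and 259.7 FPKM in HFD and also separated (log2 change 0.99 ± 0.18 SE, adjusted p = 0.0161). Fasn, the fatty acid synthase, had 43.1, 5.03, 5.92 and 7.16 FPKM in CD and 39.0, 49.96, 24.6 and 48.7 FPKM in HFD. One CD liver, CD304, lay within the HFD range and the other 3 CD livers lay far below every HFD liver, so that the change of 1.86 had an adjusted p of 0.106 with all mice and 0.00158 without CD304. Srebf1, the SREBP-1 gene, had 110.4, 28.6, 29.6 and 28.2 FPKM in CD and 123, 102, 92.1 and 115 FPKM in HFD, again with CD304 among the HFD livers (1.39, adjusted p = 0.0749, and 0.000118 without CD304). Thrsp, a lipogenic gene that responds to thyroid hormone and carbohydrate, had 332, 16.7, 37.6 and 47.5 FPKM in CD and 461, 176, 148 and 719 FPKM in HFD, and CD304 lay above HFD315 and HFD316 (2.41, adjusted p = 0.152, and 0.0240 without CD304). Without CD304, 12 of the 17 genes passed as higher, against 1863 of 10085 genes tested in that fit. That fit leaves out the CD liver that lay among the HFD livers for Fasn, Srebf1 and Thrsp, so its calls are no independent evidence. Over the fits that left out 1 mouse the count of this list ran from 1 to 12.

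Cholesterol synthesis had 1 of 25 tested genes higher and 1 lower, with a median of 0.58. Hmgcs1, which makes HMG-CoA, had 25.1, 27.2, 13.5 and 18.9 FPKM in CD and 35.2, 79.5, 36.4 and 41.8 FPKM in HFD, with all HFD livers above all CD livers (log2 change 1.11 ± 0.29 SE, adjusted p = 0.0466), and Tm7sf2, a sterol reductase gene, was lower (-0.93, adjusted p = 0.0145). Without CD304, 13 genes of this list passed as higher and 1 as lower, where 1863 of 10085 genes tested passed as higher. Over the fits that left out 1 mouse the count higher ran from 0 to 13, and its top without CD304 is no independent evidence. Among 19 genes of glucose handling 5 passed as higher (2 with scaling) and 0 as lower, with a median of 0.26. Of these Pfkfb1, whose enzyme sets the level of fructose 2,6-bisphosphate, had 11.2, 8.72, 13.4 and 7.40 FPKM in CD and 20.1, 22.9, 18.7 and 24.02 FPKM in HFD (log2 change 1.03 ± 0.16 SE, adjusted p = 0.00977), and Pygl (0.59, adjusted p = 0.0484), Pcx (0.47, adjusted p = 0.0328) and Pfkl (0.44, adjusted p = 0.0353) rose too. Pck1, the gluconeogenic PEPCK gene, had a change of -0.98 that did not pass (adjusted p = 0.0632). None of 17 tested genes of insulin signaling passed in either direction by limma (2 at an unadjusted p under 0.05, median -0.03), and with median ratio scaling 2 passed as lower.

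**Figure D3:**
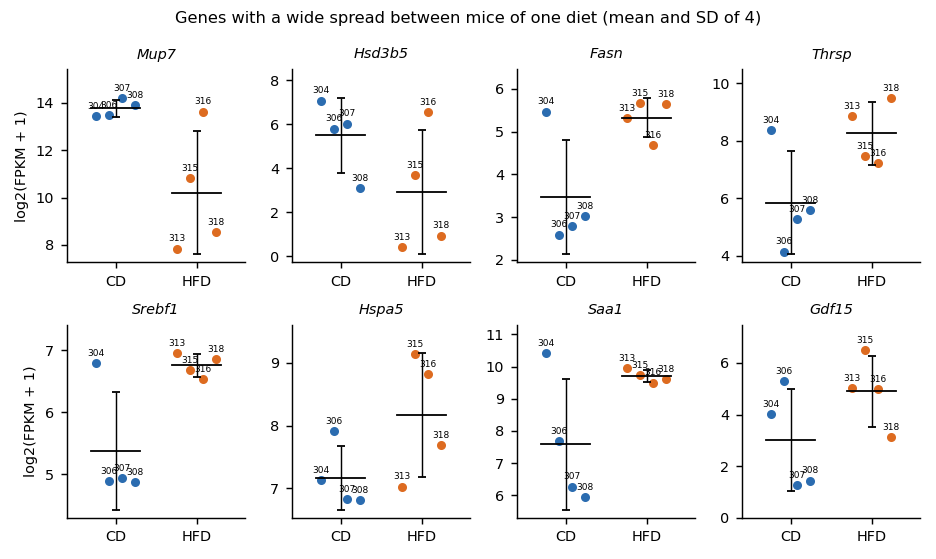
Level of 8 genes in each liver (vertical axes, log2(FPKM + 1), not starting at 0 in every panel), with the mean and SD of 4 livers of CD (blue) and HFD (orange). CD304 lies with the HFD livers for Fasn, Thrsp, Srebf1 and Saa1, and HFD316 lies with the CD livers for Mup7 and Hsd3b5.

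Some genes of fatty acid burning rose. In 37 PPARα targets and genes of fatty acid oxidation, 8 passed as higher and 0 as lower, against 9.42% higher over all genes tested. Estimates were above 0 in 30 of the 37, with a median of 0.24 (0.08 with scaling). The 2 DEGs among them were Vnn1 (1.27, adjusted p = 0.0270), a pantetheinase and PPARα target, and Ucp2 (1.03, adjusted p = 0.0145), a mitochondrial carrier. With median ratio scaling 4 of the 8 passed. Acyl-CoA synthetases had 3 of 11 higher (median 0.41) and acyl-CoA thioesterases 1 of 10 (Acot9, 0.67, adjusted p = 0.0247), with 0 lower in both. The thioesterase share was near the 9.42% of all genes tested, and its median of 0.08 lay under the 0.111 of all genes. Of 64 genes of the respiratory chain 7 passed as higher, led by Ndufs1 (0.48, adjusted p = 0.0231), with a list median of 0.18, a share near the 9.42% of all genes tested, and 1 passed with median ratio scaling. Lipoprotein genes had 3 of 19 higher and 0 lower with a median of 0.13, and 3 higher and 2 lower with scaling. Apoa4, an apolipoprotein of triglyceride-rich particles, had 218, 314, 324 and 329 FPKM in CD and 2221, 1233, 671 and 1231 FPKM in HFD, with HFD316 the lowest HFD liver but still above every CD liver (log2 change 2.07 ± 0.33 SE, adjusted p = 0.0126). Apoc2, the activator of lipoprotein lipase, had 230.0, 253, 218 and 209 FPKM in CD and 649, 428, 439 and 469.9 FPKM in HFD (log2 change 1.10 ± 0.14 SE, adjusted p = 0.00452), and Pltp, which transfers phospholipids, changed by 1.04 (adjusted p = 0.0440). Bile acid genes had 1 of 25 higher (Acox2, 0.31, adjusted p = 0.0391), with a median of 0.02, and 1 lower in its place with scaling. Cyp7a1, the rate-limiting enzyme of bile acid synthesis, had a difference of -1.35 that did not pass (adjusted p = 0.372).

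The cytochromes P450 moved in both directions. In 18 tested targets of the receptors CAR and PXR, which sense foreign compounds, 3 passed as higher and 5 as lower, with a median of -0.56. Cyp2b9, a steroid hydroxylase that is normally expressed in females and at chr7:26173335-26224886 (GRCm38, as deposited), had 3.84, 2.73, 0.58 and 0.58 FPKM in CD and 167, 103.7, 42.1 and 148 FPKM in HFD. All 4 HFD livers lay above all CD livers, with the lowest again HFD316, in what was the largest increase of any gene tested (log2 change 5.31 ± 0.55 SE, adjusted p = 0.00519). Its neighbour Cyp2b13 had 0.25, 0.02, 0 and 0 FPKM in CD and 13.3, 4.72, 1.42 and 11.0 FPKM in HFD (log2 change 2.72 ± 0.53 SE, adjusted p = 0.0249), and because the sequences of the Cyp2b genes are close, how reads were divided between them is uncertain. Gsta1, a glutathione transferase gene, had 0.53, 1.09, 0.55 and 2.57 FPKM in CD and 10.4, 9.56, 3.19 and 10.8 FPKM in HFD, with the groups apart by a small margin (log2 change 2.10 ± 0.40 SE, adjusted p = 0.0218), and Gm3776, which overlaps it at the same start, rose too (1.75, adjusted p = 0.0307). The 5 that fell were Cyp2c54 with 215, 216.8, 193 and 224 FPKM in CD and 38.8, 91.3, 94.9 and 94.3 FPKM in HFD (log2 change -1.48 ± 0.27 SE, adjusted p = 0.0164), the carboxylesterase gene Ces2a with 137, 141, 162 and 209.6 FPKM in CD and 61.7, 54.2, 61.7 and 66.3 FPKM in HFD (log2 change -1.38 ± 0.14 SE, adjusted p = 0.00137), and Cyp2c37 (-0.96, adjusted p = 0.0455), Cyp2c29 (-0.76, adjusted p = 0.0182) and Cyp2c50 (-0.46, adjusted p = 0.0355). For both Cyp2c54 and Ces2a every HFD liver lay below every CD liver. The Cyp2c genes also form a family of close sequence, which makes the split of their reads uncertain.

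Among 21 tested other liver cytochromes 1 passed as higher (Cyp2j5, 0.42, adjusted p = 0.0465) and 2 as lower, with a median of -0.02, against 0 and 4 with scaling. Cyp1a2, the caffeine-metabolizing enzyme of pericentral hepatocytes, had 464, 265, 331 and 337 FPKM in CD and 143, 166, 218 and 158 FPKM in HFD and no overlap (log2 change -1.01 ± 0.18 SE, adjusted p = 0.0132), and Cyp2c23 fell as well (-0.69, adjusted p = 0.0172). Cyp26a1, which breaks down retinoic acid and is itself turned on by it, had 12.2, 9.04, 4.03 and 8.18 FPKM in CD and 1.62, 1.77, 1.50 and 0.54 FPKM in HFD. It was the gene with the largest decrease among DEGs (log2 change -1.94 ± 0.30 SE, adjusted p = 0.0117). In the retinoid list 2 of 20 passed as higher, Aldh1a7 (1.08, adjusted p = 0.00896) and Bco1 (0.37, adjusted p = 0.0399), and Cyp26a1 alone as lower, against 1 higher and 3 lower with scaling (median 0.29, and 0.14 scaled).

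Genes that male livers express more than female livers differed between HFD mice. In that list of 27 genes, 26 were tested, 0 passed as higher and 1 as lower. The median was -0.74, against 0.111 for all genes, and 7 estimates were above 0. Mup7, a major urinary protein gene, had 11226, 11504, 18950.4 and 15175 FPKM in CD and 229, 1828, 12693 and 369 FPKM in HFD. HFD313, HFD315 and HFD318 lay below every CD liver, whereas HFD316 lay inside the CD range, and the difference of -3.55 had an adjusted p of 0.106. Without HFD316, 9 of the genes passed as lower (0 higher) and Mup7 changed by -4.69 (adjusted p = 0.0103). Of these 9, all but Cyp2d9 and Gstp1 were Mup genes. In that fit 1183 of 10096 genes tested passed in either direction, 91.3% of them as higher. It leaves out the HFD liver that lay inside the CD range for Mup7, so the calls of that fit are no independent evidence. Hsd3b5, a male-specific steroid dehydrogenase, had 134, 54.7, 64.3 and 7.50 FPKM in CD and 0.35, 12.01, 93.0 and 0.92 FPKM in HFD with its lowest levels in HFD313 and HFD318 (-2.59, adjusted p = 0.294, and 0.0660 without HFD316). The gene that passed with all mice was Cyp2d9, with 959.7, 1048, 1250 and 1128 FPKM in CD and 733, 874, 813 and 800 FPKM in HFD (log2 change -0.44 ± 0.10 SE, adjusted p = 0.0289). Reads of the Mup family are shared between near-identical copies, so a value for a single Mup gene is uncertain and calls of several Mup genes are not independent. Of 21 genes of female-biased expression 7 were tested, and 2 passed, both higher, which were Cyp2b9 and Cyp2b13 from the account of cytochromes. Growth hormone signaling, which sets this sex bias, had 2 of 13 higher and 2 lower (median 0.23). Igfbp2, which encodes an insulin-like growth factor binding protein of blood, had 323, 383, 604 and 534 FPKM in CD and 146, 97.2, 174 and 98.4 FPKM in HFD, with every HFD liver below every CD liver (log2 change -1.83 ± 0.25 SE, adjusted p = 0.00697). Igfals, the acid-labile subunit, also fell (-0.37, adjusted p = 0.0328), and Igfbp3 (0.83, adjusted p = 0.0218) and Stat5a (0.57, adjusted p = 0.0287) rose.

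Stress pathways differed in how evenly they moved. For NRF2 targets and glutathione genes 8 of 30 passed as higher and 0 as lower (median 0.31), and 6 with scaling. Pgd, an enzyme of the pentose phosphate path that makes NADPH, had 14.4, 8.37, 8.29 and 8.76 FPKM in CD and 22.7, 27.3, 17.8 and 23.5 FPKM in HFD, all HFD above all CD (log2 change 1.14 ± 0.18 SE, adjusted p = 0.0104), and Taldo1 of the same path (0.83, adjusted p = 0.0132), Hmox1 (0.74, adjusted p = 0.0492), the heme oxygenase, and Srxn1 (0.65, adjusted p = 0.0270), the sulfiredoxin, rose with it. In the unfolded protein response, by which the endoplasmic reticulum answers unfolded proteins with more chaperones, 29 of 30 estimates were above 0 with a median of 0.64, and 5 passed as higher and 0 as lower. P4hb, a disulfide isomerase, had 451, 444, 367 and 390.0 FPKM in CD and 633, 824, 662 and 625 FPKM in HFD (log2 change 0.73 ± 0.12 SE, adjusted p = 0.00972), and Sec61b (0.81, adjusted p = 0.0327), Ssr1 (0.63, adjusted p = 0.0310), Eif2ak3 (0.48, adjusted p = 0.0211) and Edem1 (0.45, adjusted p = 0.0343) were the rest. Hspa5, the chaperone BiP, had 139, 239, 112.7 and 111 FPKM in CD and 129, 564, 450.1 and 206 FPKM in HFD. HFD315 and HFD316 were high, HFD313 and HFD318 were inside the CD range, and the difference of 1.00 did not pass (adjusted p = 0.216). Without CD304, 11 of the 30 passed as higher and 1 as lower, where 1863 of 10085 genes tested passed as higher. Over the fits that left out 1 mouse the count higher ran from 1 to 11, and its top without CD304 is no independent evidence. The integrated stress response had 1 of 15 higher (median 0.03), Chac1, a glutathione-degrading enzyme, with 3.66, 3.13, 3.18 and 3.24 FPKM in CD and 6.79, 6.86, 12.5 and 5.95 FPKM in HFD (log2 change 1.02 ± 0.18 SE, adjusted p = 0.0145), and Gdf15, a stress hormone of liver, ranged from 1.40 to 38.6 FPKM in CD and from 7.65 to 88.4 FPKM in HFD (1.90, adjusted p = 0.295).

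Promoters of chaperone genes and of interferon-stimulated genes are shown with a motif known for each group, since the letters can be compared between members. For the chaperone genes this is the endoplasmic reticulum stress element, searched as CCAAT, any 9 bases and CCACG on both strands in the 300 bases from 250 before to 50 after each start (RefSeq, GRCm38.p6). It was found in 9 of the 25 listed genes that had a window against 0.137% of all 27025 genes with a window, and in 0 of the 5 genes that passed. Hspa5 (chr2:34771840-34772139, plus strand) and Calr (chr8:84846882-84847181, minus strand) are printed 5′ to 3′ along the gene, with the match in capitals. Calr, the chaperone calreticulin, had a log2 difference of 0.90 that did not pass (adjusted p = 0.0802).
Hspa5: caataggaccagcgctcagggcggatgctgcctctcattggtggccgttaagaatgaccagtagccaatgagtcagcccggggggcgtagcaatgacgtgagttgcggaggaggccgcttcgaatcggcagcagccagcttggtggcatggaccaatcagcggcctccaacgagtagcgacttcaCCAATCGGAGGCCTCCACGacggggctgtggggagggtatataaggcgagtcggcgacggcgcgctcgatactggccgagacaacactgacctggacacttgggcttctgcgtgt
Calr: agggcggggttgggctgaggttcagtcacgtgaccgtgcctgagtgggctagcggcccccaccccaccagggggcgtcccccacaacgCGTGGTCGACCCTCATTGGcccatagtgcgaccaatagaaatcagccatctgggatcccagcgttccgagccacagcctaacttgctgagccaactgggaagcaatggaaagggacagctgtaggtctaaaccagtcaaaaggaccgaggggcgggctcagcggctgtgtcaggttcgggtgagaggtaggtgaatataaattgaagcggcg

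Interferon-stimulated genes, which cells turn on against viruses, had 12 of 28 tested members higher and 0 lower, with a median of 0.60, and 9 higher with scaling. The largest was Ifi27l2a with 3.81, 2.15, 2.96 and 2.81 FPKM in CD and 9.18, 13.9, 10.4 and 11.0 FPKM in HFD, which separated the diets (log2 change 1.63 ± 0.15 SE, adjusted p = 0.00137). The next was Ifit3, whose protein binds viral RNA, with 5.74, 3.08, 2.76 and 2.21 FPKM in CD and 7.30, 6.59, 7.23 and 8.55 FPKM in HFD, where CD304 was the highest CD liver and below all HFD livers (log2 change 0.97 ± 0.20 SE, adjusted p = 0.0215). Rsad2, the antiviral enzyme viperin, had 1.13, 1.65, 1.19 and 0.80 FPKM in CD and 2.05, 3.41, 2.94 and 3.54 FPKM in HFD (log2 change 0.86 ± 0.15 SE, adjusted p = 0.0132). Isg15, a ubiquitin-like protein, had 9.17, 6.78, 5.38 and 3.93 FPKM in CD and 10.5, 9.32, 12.97 and 11.1 FPKM in HFD, and CD304 nearly reached HFD315 (log2 change 0.75 ± 0.20 SE, adjusted p = 0.0446). Others were Usp18 (0.81), Oasl2 (0.74), Cmpk2 (0.72), Tap1 (0.71), Oas1a (0.67), Ifit1 (0.63) and Gbp3 (0.63), with adjusted p from 0.0209 for Usp18 to 0.0431 for Tap1. Without CD304, 21 of the 28 passed as higher, against 1863 of 10085 genes tested in that fit, and without CD304 and CD306 22 did. Over the fits that left out 1 mouse the count ran from 2 to 21, and its top without CD304 is no independent evidence. The interferon-stimulated response element was searched as GAAA, any 2 bases and GAAA, on both strands (TTTC, any 2 bases and TTTC on the other), in the same 300-base windows. It was found in 16 of the 27 listed genes with a window, against 3.99% of all genes with a window. Among tested members with a window it was in 14 of 23, and in 6 of the 9 that passed. Of those 6, 4 are printed with each match in capitals, Isg15 (chr4:156200769-156201068, minus strand), Ifit1 (chr19:34640639-34640938, plus strand), Ifit3 (chr19:34583279-34583578, plus strand) and Rsad2 (chr12:26456403-26456702, minus strand). In Isg15 the 3 matches overlap to 1 run that starts 78 bases before the start site.
Isg15: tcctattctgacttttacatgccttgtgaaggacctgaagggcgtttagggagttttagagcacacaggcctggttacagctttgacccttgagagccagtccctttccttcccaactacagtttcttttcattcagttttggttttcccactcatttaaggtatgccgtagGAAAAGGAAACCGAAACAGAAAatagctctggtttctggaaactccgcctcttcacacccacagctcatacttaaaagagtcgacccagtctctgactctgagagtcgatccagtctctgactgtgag
Ifit1: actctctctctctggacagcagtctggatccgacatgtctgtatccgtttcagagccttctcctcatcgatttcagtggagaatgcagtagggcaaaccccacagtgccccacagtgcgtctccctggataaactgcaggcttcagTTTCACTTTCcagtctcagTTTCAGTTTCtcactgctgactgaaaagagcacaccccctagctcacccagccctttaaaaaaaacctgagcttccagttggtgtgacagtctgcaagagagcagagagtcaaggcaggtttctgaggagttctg
Ifit3: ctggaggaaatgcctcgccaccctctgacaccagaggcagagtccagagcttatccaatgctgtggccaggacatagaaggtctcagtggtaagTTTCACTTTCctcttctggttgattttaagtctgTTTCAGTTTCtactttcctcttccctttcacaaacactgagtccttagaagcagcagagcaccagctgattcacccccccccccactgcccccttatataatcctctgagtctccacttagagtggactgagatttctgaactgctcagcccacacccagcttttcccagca
Rsad2: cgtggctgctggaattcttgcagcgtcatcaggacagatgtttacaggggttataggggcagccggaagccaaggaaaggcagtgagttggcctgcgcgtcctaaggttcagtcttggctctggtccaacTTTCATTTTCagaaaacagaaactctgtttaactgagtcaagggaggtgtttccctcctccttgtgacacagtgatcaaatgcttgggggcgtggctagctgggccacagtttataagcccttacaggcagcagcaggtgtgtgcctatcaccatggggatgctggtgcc

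Some genes of the macrophage lists were higher in HFD. In the list of lipid-associated macrophages, the lipid-handling cells of fatty liver, 14 of 21 genes reached the level for testing. All 14 estimates were above 0, and 8 passed as higher with a median of 0.77 (6 with scaling). With either covariate above, the 1 gene of this list that passed was Anxa2. Trem2, the defining lipid receptor of these macrophages, had 0.28, 0.54, 0.22 and 0.36 FPKM in CD and 2.00, 1.14, 1.10 and 1.73 FPKM in HFD, all HFD livers above all CD livers (log2 change 0.87 ± 0.13 SE, adjusted p = 0.00886). The other 2 defining markers were too low to be tested, Gpnmb with 0.07, 0.01, 0.03 and 0.08 FPKM in CD and 1.12, 0.69, 0.09 and 0.88 FPKM in HFD and Itgax with 0.12, 0.18, 0.05 and 0.09 FPKM in CD and 0.33, 0.43, 0.29 and 0.47 FPKM in HFD, and Gpnmb was nearly as low in HFD316 as in CD308. Cd68, a lysosomal protein of macrophages, had 2.15, 2.08, 3.88 and 3.38 FPKM in CD and 8.12, 11.0, 5.45 and 7.49 FPKM in HFD (log2 change 1.21 ± 0.21 SE, adjusted p = 0.0130), and Lgals3 (1.01, adjusted p = 0.0115), galectin-3, and Ctss (0.92, adjusted p = 0.0209), cathepsin S, rose as well. Anxa2, which is listed here but is not limited to macrophages, had 9.13, 6.41, 3.28 and 3.92 FPKM in CD and 30.7, 46.9, 28.7 and 38.0 FPKM in HFD (log2 change 2.53 ± 0.28 SE, adjusted p = 0.00418). Kupffer cell genes had 5 of 21 higher and 0 lower (median 0.69), against 9.42% higher over all genes tested, and 2 with scaling. With either covariate 0 passed in limma (13 and 9 at an unadjusted p under 0.05 with mapped reads and the top 20 genes). Leaving out 1 mouse gave counts from 0 to 6. The 5 were Mpeg1 (1.10, adjusted p = 0.0177), Aif1 (0.82, adjusted p = 0.0485) and the complement genes C1qb with 18.3, 12.97, 19.8 and 24.3 FPKM in CD and 30.2, 55.0, 36.1 and 35.1 FPKM in HFD (1.01, adjusted p = 0.0231), C1qc (0.92, adjusted p = 0.0449) and C1qa (0.73, adjusted p = 0.0428). The defining markers of Kupffer cells did not pass, with differences of 0.64 in Clec4f (adjusted p = 0.0763), 0.64 in Vsig4 (adjusted p = 0.0935) and 0.35 in Timd4 (adjusted p = 0.424), and HFD315 had the highest level of each. Every HFD liver lay above every CD liver in Clec4f and Vsig4, as in 14.6% of genes tested, but not in Timd4.

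Of monocyte, neutrophil and chemokine genes 8 of 19 tested passed as higher and 1 as lower (median 0.54), against 6 and 2 with scaling. Ccl2, the chemokine that draws monocytes, had 0.29, 0.10, 0.15 and 0.09 FPKM in CD and 1.71, 1.46, 2.66 and 1.14 FPKM in HFD, low throughout but without overlap (log2 change 1.22 ± 0.15 SE, adjusted p = 0.00464). Cxcl9 (0.96, adjusted p = 0.0116) and Cxcl10 (0.60, adjusted p = 0.0169), chemokines turned on by interferon, Il1rn (0.79, adjusted p = 0.0229), S100a8 (0.78, adjusted p = 0.0314) and S100a9 (0.79, adjusted p = 0.0453) rose, and Nfkbia (-0.47, adjusted p = 0.0372), the NF-κB inhibitor, fell. Genes of class II antigen presentation had 3 of 5 higher and 0 lower (median 0.51), H2-DMa (0.56, adjusted p = 0.0164), Cd74 (0.53, adjusted p = 0.0442) and H2-DMb1 (0.41, adjusted p = 0.0403), of which 1, H2-DMa, passed with scaling. None of the 18 lymphocyte genes with values reached the level for testing, and their summed level was 4.56 to 6.04 FPKM in CD and 5.43 to 8.89 FPKM in HFD.

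In the acute phase response, the proteins that liver secretes in inflammation, 4 of 27 genes passed as higher and 0 as lower (median 0.25), and 3 higher and 1 lower with scaling. Saa3, the serum amyloid A made also by macrophages, had 10.1, 7.35, 7.81 and 5.97 FPKM in CD and 25.8, 48.8, 33.8 and 36.3 FPKM in HFD, far apart between diets (log2 change 2.06 ± 0.19 SE, adjusted p = 0.00137). Lcn2, the iron-binding lipocalin-2, had 74.0, 29.0, 12.6 and 22.0 FPKM in CD and 193, 109, 81.0 and 138 FPKM in HFD, and CD304 was close to HFD316 (log2 change 2.11 ± 0.52 SE, adjusted p = 0.0440, called in 2 of 8 fits that left out 1 mouse). Steap4 (1.09, adjusted p = 0.0247) and Cp (0.36, adjusted p = 0.0440), ceruloplasmin, were the others. Saa1, which hepatocytes make, had 1364, 204, 76.1 and 61.0 FPKM in CD and 989, 849, 725 and 783 FPKM in HFD, so that CD304 exceeded all HFD livers and the difference of 2.12 did not pass (adjusted p = 0.183). Without CD304, 10 genes of the list passed as higher and 1 as lower, where 1863 of 10085 genes tested passed as higher. Over the fits that left out 1 mouse the count higher ran from 1 to 10, and its top without CD304 is no independent evidence. The list of hepatokines, the hormones of the liver, and other secreted proteins had 2 of 22 higher and 2 lower (median 0.12). The share higher was near the 9.42% of all genes tested. Sparc (1.15, adjusted p = 0.0148), a secreted matrix protein, and Lect2 (0.94, adjusted p = 0.0151) rose, and Igfbp2 and Fetub (-0.57, adjusted p = 0.00832) fell.

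Part of the matrix genes rose. In 28 tested genes of collagen, stellate cells and matrix, 12 passed as higher and 0 as lower, with a median of 0.62, and 12 with scaling. Col1a1, a chain of type I collagen, had 3.47, 0.98, 0.31 and 0.55 FPKM in CD and 8.14, 7.32, 3.77 and 5.42 FPKM in HFD, all HFD livers above all CD livers but with CD304 close to HFD316 (log2 change 1.75 ± 0.39 SE, adjusted p = 0.0319). Col3a1, the type III collagen chain, had 5.61, 2.29, 0.78 and 1.19 FPKM in CD and 10.9, 16.7, 6.61 and 9.93 FPKM in HFD with the same order (log2 change 1.92 ± 0.43 SE, adjusted p = 0.0333). Both were called in 2 of 8 fits that left out 1 mouse. Col1a2 (1.42, adjusted p = 0.0170), Tagln (1.18, adjusted p = 0.00879), a contractile protein of smooth muscle and activated stellate cells, Col14a1 (1.06, adjusted p = 0.00697), Col4a1 (1.02, adjusted p = 0.00561) and Pdgfrb (0.68, adjusted p = 0.0145), the stellate cell receptor, also rose. The defining stellate markers Lrat (0.37, adjusted p = 0.0535), Des (0.24, adjusted p = 0.232) and Reln (0.39, adjusted p = 0.140) did not pass. With either covariate above, 0 genes of this list passed in limma, and 12 had an unadjusted p under 0.05 with each.

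Other cell types gave fewer calls. Of 18 liver endothelial genes 1 passed, Plvap (0.72, adjusted p = 0.0289), as higher, with a median of 0.08 (0 higher and 1 lower with scaling), and the defining Stab2 had a difference of 0.10 (adjusted p = 0.728). Of 17 cholangiocyte genes 7 were tested and 3 passed as higher: Krt23 with 0.87, 1.05, 0.65 and 0.68 FPKM in CD and 10.6, 2.15, 4.28 and 3.43 FPKM in HFD (log2 change 1.58 ± 0.35 SE, adjusted p = 0.0297), Krt8 (1.11, adjusted p = 0.00636) and Krt18 (0.78, adjusted p = 0.0130), keratins of which the last 2 are made by hepatocytes too. The defining Krt19 was at 5.77 FPKM in CD304 and 0.23 to 0.97 FPKM in the other 7 livers, and Epcam at 0.45 to 0.90 FPKM in all 8. Hepatocyte genes had 0 of 17 higher and 1 lower (Serpina1d, -0.36, adjusted p = 0.0409), pericentral genes 3 of 17 higher and 2 lower (2 and 4 with scaling), and periportal genes 1 of 18 higher, Aldh1b1 (1.06, adjusted p = 0.0179), with medians of -0.16, -0.01 and -0.10. In the pericentral list Slc13a3 (1.15, adjusted p = 0.00390), Lect2 and Rgn (0.62, adjusted p = 0.0363) rose and Notum (-0.43, adjusted p = 0.0272) and Cyp1a2 fell. All 6 tested red blood cell genes had estimates above 0 with a median of 1.43 and 0 passed in limma (2 at an unadjusted p under 0.05). Without HFD316 5 passed, but their lowest HFD level was in HFD316, so that count is no independent evidence. Hbb-bs ran from 164 to 567 FPKM in CD and from 229 to 1651 FPKM in HFD. Both tested pancreatic acinar genes stayed under the threshold (Cela1, -0.07, adjusted p = 0.936, and Amy1, -0.06, adjusted p = 0.722). The part that these cells had in any other change was not tested.

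**Figure D4:**
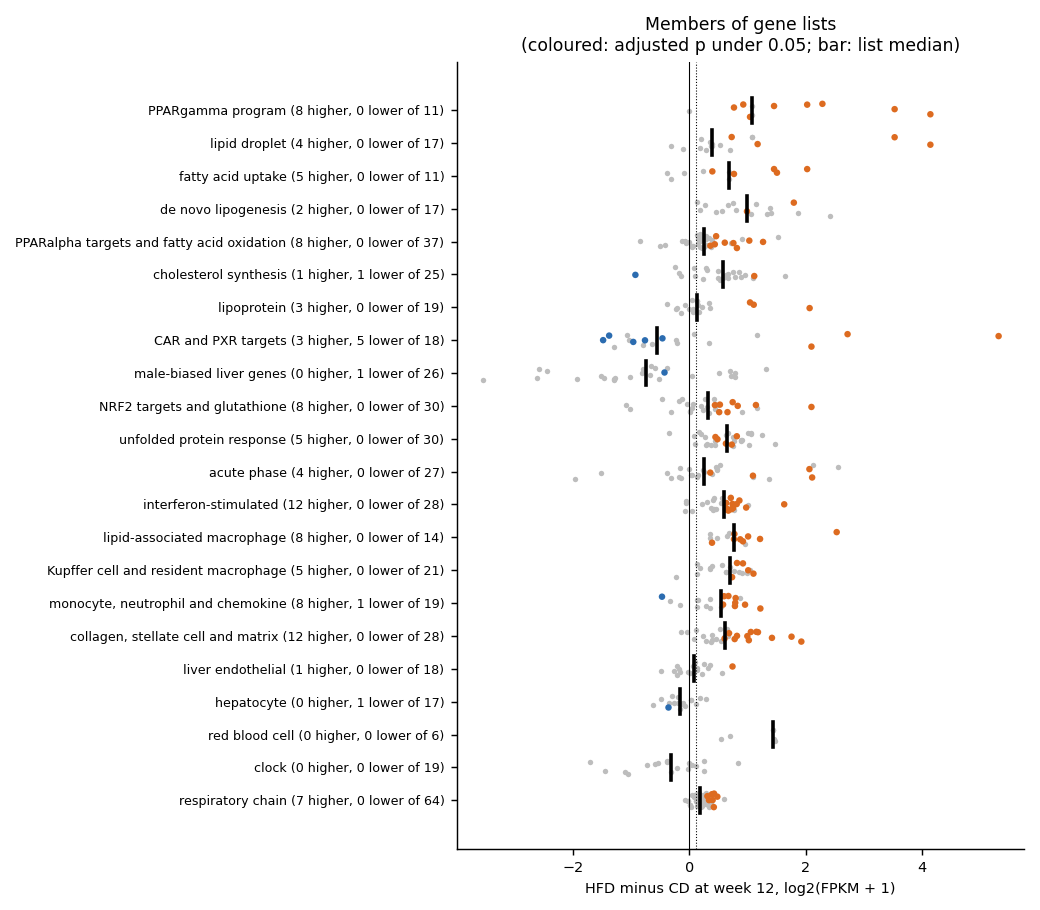
Difference between diets (horizontal axis, HFD minus CD, log2(FPKM + 1)) of every tested member of 22 lists, one list a row, with members at an adjusted p under 0.05 in orange (higher) or blue (lower), the list median as a bar and the median of all genes as a dotted line. Members that passed lie to the right in most lists, with 12 in the interferon and 12 in the matrix list, and to both sides for CAR and PXR targets, with 3 higher and 5 lower.

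Among cell cycle genes 4 of 11 tested passed as higher and 0 as lower (median 0.51). Cdkn1a, the cell cycle inhibitor p21, had 0.63, 3.73, 1.30 and 2.34 FPKM in CD and 4.45, 11.0, 5.69 and 6.73 FPKM in HFD, all HFD above all CD (log2 change 1.46 ± 0.35 SE, adjusted p = 0.0385), and Ccnd1, cyclin D1, rose too (0.94, adjusted p = 0.0132) with the replication genes Mcm2 (0.69, adjusted p = 0.0145) and Mcm3 (0.55, adjusted p = 0.0319). Mki67 and Top2a, which mark dividing cells, were too low to be tested. Clock genes had 0 of 19 in either direction by limma (6 at an unadjusted p under 0.05, median -0.32), and 0 higher and 1 lower with scaling. Per1 had 9.67, 9.19, 15.3 and 17.4 FPKM in CD and 6.77, 3.52, 3.42 and 8.93 FPKM in HFD, every HFD liver below every CD liver, but an adjusted p of 0.0556 for its difference of -1.10. Immediate early genes had 1 of 17 higher, Klf6 (0.66, adjusted p = 0.0120), and a median of 0.33 (1 higher and 1 lower with scaling). Lysosomal genes had 6 of 31 higher, Ctss among them, and 1 lower, Scarb2 (-0.36, adjusted p = 0.0240), with a median of 0.13. Sphingolipid genes had 2 of 23 higher, Sptlc2 (0.45, adjusted p = 0.0325) and Sptlc1 (0.38, adjusted p = 0.0400), the subunits of serine palmitoyltransferase (median 0.18), against 1 higher and 1 lower with scaling. Of iron and metal genes 2 of 20 passed as higher, Hjv (0.59, adjusted p = 0.0111) and Slc39a4 (0.60, adjusted p = 0.0482), with a median of -0.00, against 1 higher and 3 lower with scaling. The proteasome had 1 of 31 higher, Psmd14 (0.54, adjusted p = 0.0199), with a median of 0.13. In amino acid metabolism and the urea cycle 3 of 38 passed as higher, Bhmt (0.75, adjusted p = 0.0127), Amt (0.57, adjusted p = 0.0257) and Kmo (0.51, adjusted p = 0.0333), and 1 as lower, Gnmt (-0.70, adjusted p = 0.0396), with a median of -0.02 (2 and 2 with scaling). The shares that passed as higher in the immediate early, sphingolipid, iron, proteasome and amino acid lists were near or below the 9.42% of all genes tested. Of the liver genes that the study names 35 were tested and 14 passed as higher and 0 as lower (median 0.48), and since the study chose them on these samples that count is no independent evidence.

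Several of the 20 largest increases belong to none of these groups or only loosely. Ifi27l2b, a small mitochondrial protein gene next to Ifi27l2a in name and sequence, had 2.06, 1.50, 1.09 and 1.56 FPKM in CD and 25.7, 22.1, 17.3 and 21.0 FPKM in HFD. It had the smallest adjusted p of all genes (log2 change 3.14 ± 0.14 SE, adjusted p = 8.07e-06), and how reads were divided between the 2 relatives is uncertain. Lgals1, galectin-1, a sugar-binding protein of stromal and immune cells, had 20.7, 19.2, 10.5 and 8.07 FPKM in CD and 117.7, 108, 72.5 and 138 FPKM in HFD, with the groups well apart (log2 change 2.87 ± 0.31 SE, adjusted p = 0.00452). Adgrv1, a very large adhesion receptor, had 2.07, 1.80, 2.73 and 1.22 FPKM in CD and 22.5, 14.7, 10.8 and 14.2 FPKM in HFD (log2 change 2.46 ± 0.22 SE, adjusted p = 0.00137). Serpina7, the carrier of thyroid hormone in blood, had 17.5, 8.41, 6.92 and 2.88 FPKM in CD and 58.7, 60.5, 40.3 and 50.6 FPKM in HFD, and the HFD livers were close to one another (log2 change 2.63 ± 0.43 SE, adjusted p = 0.0147). Tubb2a, a beta-tubulin, had 10.7, 17.3, 11.5 and 10.2 FPKM in CD and 41.8, 124, 37.1 and 63.7 FPKM in HFD, highest in HFD315 (log2 change 2.20 ± 0.37 SE, adjusted p = 0.0147). Ly6d and Slc22a27, an organic anion transporter gene, were lowest among HFD livers in HFD316. Ly6d had 0.68, 1.06, 0.54 and 0.49 FPKM in CD and 16.3, 7.75, 1.43 and 13.7 FPKM in HFD (log2 change 2.35 ± 0.59 SE, adjusted p = 0.0466). Slc22a27 had 0.28, 0.49, 0.14 and 0.39 FPKM in CD and 9.89, 4.01, 1.32 and 6.59 FPKM in HFD (log2 change 2.08 ± 0.43 SE, adjusted p = 0.0279). Those 2 calls were made in 1 and 3 of the 8 fits that left out 1 mouse, respectively.

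Among the 9 DEGs that fell, 4 have not been described. Cyp2g1, a cytochrome best known from the nose, had 3.19, 2.09, 2.12 and 2.13 FPKM in CD and 0.12, 0.19, 0.43 and 0.26 FPKM in HFD, with CD304 above the other 3 CD livers and all HFD livers under 0.5 FPKM (log2 change -1.43 ± 0.12 SE, adjusted p = 0.00137). Cadm4, a cell adhesion molecule, had 6.29, 5.73, 5.42 and 6.03 FPKM in CD and 0.82, 1.51, 2.46 and 0.94 FPKM in HFD (log2 change -1.54 ± 0.18 SE, adjusted p = 0.00411), and Serpine2, an inhibitor of thrombin and plasminogen activators, had 9.29, 9.43, 10.9 and 11.1 FPKM in CD and 1.66, 2.71, 6.96 and 2.05 FPKM in HFD (log2 change -1.50 ± 0.30 SE, adjusted p = 0.0231). In both genes HFD316 was the HFD liver nearest to CD. Gapdh-ps15, a processed pseudogene of Gapdh, had 12.1, 9.05, 12.02 and 10.03 FPKM in CD and 1.97, 1.71, 6.30 and 1.53 FPKM in HFD (log2 change -1.75 ± 0.32 SE, adjusted p = 0.0172) while Gapdh itself, the glycolytic gene, was higher (0.63, adjusted p = 0.00785), and reads of the pseudogene and its parent may not be told apart.

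The effect of HFD at week 12 was also set against its effect in the other weeks, in one fit of all 12 liver groups over 10879 genes. Each week had its own CD and HFD mice, and the contrasts against week 12 share the week 12 mice. Cyp2b9 differed between diets by 0.52, 6.28, 5.31, 4.96, 4.90 and 3.26 on the log2 scale at weeks 4, 8, 12, 16, 20 and 24. Cidea differed by -0.01, 2.75, 4.14, 5.41, 4.74 and 4.51, Lgals1 by -0.28, 2.76, 2.87, 2.95, 2.43 and 1.50, and Igfbp2 by 0.06, -0.93, -1.83, -1.68, -1.82 and -0.45. At week 4 the 4 values lay between -0.28 and 0.52, and from week 8 on all had the sign of week 12. Not every DEG was near 0 at week 4: Fabp2 differed by 1.51 at week 4 and 1.50 at week 12, and Fabp4 by 1.20 and 1.45. A test of the difference itself called 2 genes against week 8, 1 higher and 1 lower (0.00919% each), 0 against week 16 and 1, lower, against the mean of the other 5 weeks (0.00919%). At an unadjusted p under 0.05 the counts were 960, 102 and 944 genes. Pla2g12a, a secreted phospholipase A2, had 12.9, 24.4, 19.2 and 22.0 FPKM in CD and 12.5, 8.73, 8.83 and 8.56 FPKM in HFD at week 12, and its change of -0.93 stood against 0.51 at week 8 (difference -1.44 ± 0.27 SE, adjusted p = 0.0180) and differed by -1.15 ± 0.21 SE from the mean of the other weeks (adjusted p = 0.0222). Adgrf1, an adhesion receptor, was the other, with a difference of 1.04 ± 0.18 SE from week 8 (adjusted p = 0.0128), where CD livers had 1.36 to 2.58 FPKM, whereas all 8 livers at week 12 had 0.02 to 0.71 FPKM. These counts depended on single mice: without CD304, 48 genes passed as higher and 24 as lower against week 8 and 92 and 8 against the mean of the other weeks, and without CD306 0 passed in either (936 and 896 at an unadjusted p under 0.05).

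Both diets at week 12 differed from their own other weeks in more genes. CD livers at week 12 had 186 genes higher (1.71%) and 386 lower (3.55%) than the mean of CD livers in the other 5 weeks, and HFD livers 221 higher (2.03%) and 144 lower (1.32%). The CD counts were 238 and 756 without CD304, 66 and 134 without CD306, 100 and 78 without CD307 and 76 and 56 without CD308. The HFD counts in both directions together were 164 without HFD313, 204 without HFD315, 228 without HFD316 and 85 without HFD318, of 365 with all mice. With median ratio scaling CD had 519 higher and 329 lower, and HFD 310 and 186. In CD the genes with the largest decrease were Saa2 (-4.56), Saa1 (-3.18), H2-Q10 (-3.11), Orm2 (-2.47) and Lcn2 (-2.10), of which all but H2-Q10, a class Ib antigen gene, encode acute phase proteins. Mup10 (7.23 in CD and 6.47 in HFD), Gabarap (2.10 in CD) and H2-Q10 (-2.01 in HFD) changed in both diets. Mup10 was at 237, 2768, 4196 and 1509 FPKM in CD and 3245, 1798, 15.6 and 199 FPKM in HFD at week 12 and at 0 to 17.2 FPKM in 39 of the 40 livers of the other weeks, with 536 FPKM in the other one. Of the genes that passed, 127 passed in both diets, 22.2% of those in CD and 34.8% of those in HFD, and 126 of them had the same sign in both. The week and anything that differed in how its livers were handled cannot be told apart. In HFD the hemoglobin genes Hba-a1 (2.86), Hbb-bs (2.68) and Hbb-bt (2.68) were among the largest increases beside Mup10 and the gene model Gm4184 (2.49).

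**Figure D5:**
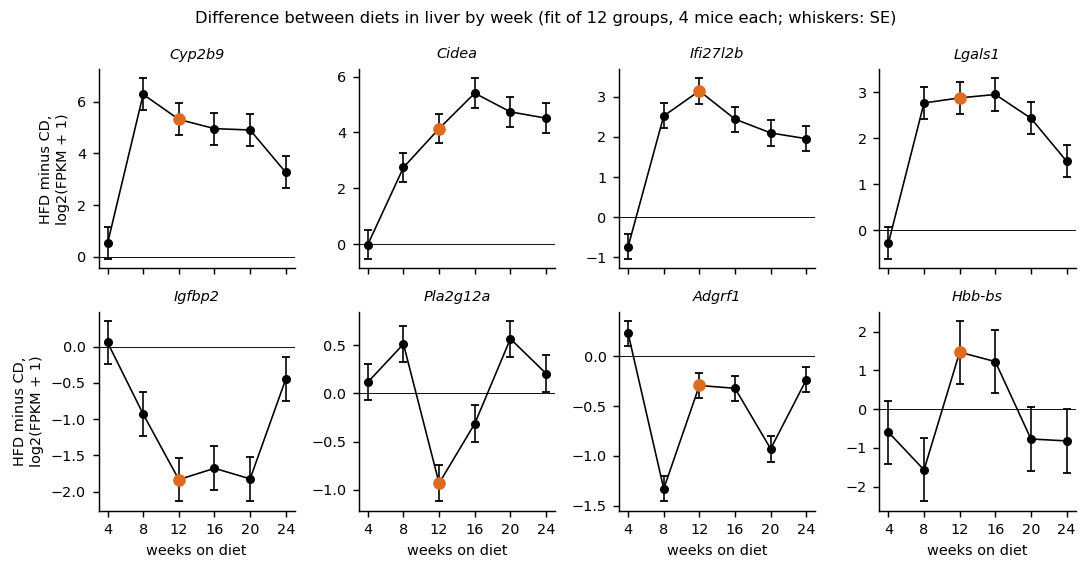
Difference between diets in liver (vertical axes, HFD minus CD, log2(FPKM + 1), whiskers SE) by weeks on diet (horizontal axis) for 8 genes, from a fit of 12 groups of 4 mice, with week 12 in orange. Cyp2b9, Cidea, Ifi27l2b and Lgals1 lie above 0 and Igfbp2 below 0 at week 12 and its neighbours, while Pla2g12a lies at -0.93 at week 12 against 0.51 at week 8.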

How the data were processed

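RNA of whole liver pieces was reverse transcribed with random hexamers after poly(A) selection and sequenced on a BGISEQ-500. Per the submitters' processing notes, HISAT2 2.0.4, Bowtie2 2.2.5, RSEM 1.1.12 and DESeq2 were used with GRCm38.p5. The authors deposited 1 table of FPKM values with 2 decimals for 21990 genes in 96 libraries, of which 20155 had values in liver. FPKM divides out library size, so a gene is measured against the whole of its library, and a few abundant genes can shift all others. Read counts per gene were not used here, so no counting interval is given. The same table holds the authors' group means, fold changes, p-values, q-values and cluster memberships, which were not used.

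Columns were matched to mice by title, and groups come from the labels. Genes that reached 1 FPKM in 4 or more of these 8 livers were tested with limma 3.58.1 (R 4.3.3, trend and robust variances) on log2(FPKM + 1), with Benjamini-Hochberg adjustment. The threshold was an adjusted p of 0.05, and DEGs had an absolute log2 change of at least 1. Contrasts between weeks came from one limma fit of 12 groups. Median ratio scaling divides each library by the median of its ratios to the geometric mean. The share of mapped reads, used as a covariate, came from the study's read table. Symbols were updated by Entrez identifier (21823 matched RefSeq). Promoter windows came from RefSeq (GRCm38.p6).

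Gene lists were written from general knowledge of liver, and the members and lists were chosen with earlier results of these data known. Genes named were the 20 DEGs with the largest increase, up to 10 with the largest decrease, and list members for their role or because they passed, and a few genes are not reported here. Each group had separate mice, so p-values measure the spread between mice. Alternatives were another pseudocount, filters, scalings, covariates and fits, and leaving out each mouse (at least 1 FPKM in 3 of 7 livers). The covariate of the 20 most abundant genes and the fit without CD304 and CD306 were chosen after seeing the data.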

Additional observations from a re-analysis of the deposited data

Results flagged for a closer look

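In groups of 4 livers, a mouse was marked where its distance to the next value, on the log2(FPKM + 1) scale, as a share of the range of its group passed Dixon's critical value. Over the named genes and both diets 400 groups were examined and 29 were marked, and chance marks about 1 in 20 groups. CD304 stood apart from the other CD livers in Cyp2b13 (0.911), Apoa4 (0.892), Cyp2g1 (0.958), Ttc39a (0.951), Fasn (0.848), Srebf1 (0.965), Pygl (0.957), Ndufs1 (0.834), Pgd (0.902), Usp18 (0.925), Mpeg1 (0.871) and Rgn (0.848). CD306 did so in Cidea (0.896) and Cyp7a1 (0.913), and CD308 in Serpina1d (0.878) and Gnmt (0.926). HFD316 stood apart from the other HFD livers in Gsta1 (0.894), Gapdh-ps15 (0.849), Fam241b (0.888) and Pparg (0.913), and through a trace of pancreatic transcripts in Ins1 (1.000), Ins2 (1.000) and Ctrb1 (0.951). HFD313 did so in Cyp2c54 (0.956), Scarb2 (0.864) and Pla2g12a (0.920), HFD315 in Bco1 (0.919) and in Plin1 (1.000), which was at 0 in the other 7 livers, and HFD318 in H2-DMb1 (0.844).

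The effect of HFD at week 12 differed from that at week 8 in Adgrf1 (1.04) and Pla2g12a (-1.44), and from the mean of the other weeks in Pla2g12a (-1.15), each on the log2 scale and by limma's test of the difference.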

How the results depend on the processing

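No paired analysis was possible because CD and HFD mice share no replicate number. With all mice 1.03% of genes tested were DEGs higher and 0.0904% DEGs lower in HFD. The range over fits that left out 1 mouse was 55 to 167 higher and 6 to 24 lower. A pseudocount of 0.1 gave 201 and 14, since low genes then change more on the log2 scale. Lower DEGs numbered 16 with median ratio scaling, 19 with quantile normalization and 24 in one fit of all 12 liver groups (72, 71 and 120 higher). With the share of mapped reads as a covariate there were 21 and 2, with that of the 20 most abundant genes 16 and 3, without CD304 and CD306 218 and 27, and with no fold threshold 938 and 121; the cause was not tested. Over all lists 146 members passed as higher and 18 as lower, with 44 to 227 and 6 to 40 when 1 mouse was left out, 38 lower with median ratio scaling, 12 and 1 or 9 and 2 with the covariates in that order, and 222 and 32 without CD304 and CD306. Contrasts between weeks called, without 1 mouse, 0 to 72 genes against week 8 (1 with a pseudocount of 0.1), 0 against week 16 and 0 to 100 against the other weeks, 132 to 994 within CD and 85 to 375 within HFD. Over 187 named genes and 3362 values under alternatives, 2416 stayed on their side of the threshold with their direction, 904 lost the call, 42 gained one and none of those called changed sign. Read counts per gene were not used, so low genes such as Cyp2b13 or Ccl2 have a precision that cannot be stated.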
